A study of Homo sapiens with 6 samples.

Results

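Prostate epithelium is recognised by a small set of secreted, surface and enzyme markers, and 9 of their genes were examined here across all of their probe sets: KLK2, KLK3, KLK4, TMPRSS2, SLC45A3, ACP3, AZGP1, FOLH1 and AMACR. The genes were listed by name, with earlier results of these data known, so counts over them describe these genes and are not independent evidence. Of the 9, 7 had at least 1 probe set that named the gene alone, out of 12165 such genes on the array, and these 7 genes had 18 probe sets among 22215. KLK4 and SLC45A3 had no probe set of their own in the annotation used and are not analysed here. The cells were LNCaP, an androgen-responsive human prostate cancer line of epithelial origin, grown in RPMI medium with serum. By their labels, 3 of 6 Affymetrix arrays carried RNA from cells exposed to 20 µM gedunin for 6 h. The other 3 are labelled as cells given DMSO, the solvent, for the same 6 h. Gedunin is a limonoid from neem and related trees. The labels number the arrays of each group as biological replicates, all of 1 cell line, so the spread behind each p-value is that between such cultures.

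KLK3 (prostate-specific antigen), KLK2 and ACP3 (prostatic acid phosphatase) are secreted into the prostatic fluid. There the kallikreins, which are serine proteases, act in a cascade that liquefies the ejaculate. TMPRSS2 is a serine protease anchored in the cell membrane, and FOLH1 (prostate-specific membrane antigen) is a membrane peptidase that trims glutamates from folates. AZGP1 is a secreted glycoprotein linked to lipid breakdown. AMACR is neither secreted nor on the surface: it is a racemase of peroxisomes and mitochondria that prepares branched-chain fatty acids for oxidation, and it is a histological marker of prostate cancer. In LNCaP cells androgen raises KLK2, KLK3 and TMPRSS2 through the androgen receptor and lowers FOLH1.

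In cells given gedunin the AMACR signal was 37.7% to 47.9% of that in DMSO-treated cells on its 3 brighter probe sets, the lowest ratios among these genes. TMPRSS2 fell on 1 of 2 probe sets and FOLH1 on 2 of 4, by smaller amounts. AZGP1 rose by about 1.29-fold. KLK2, KLK3 and ACP3 did not pass the test on any probe set. These statements set 3 gedunin arrays against DMSO 1 and DMSO 2, for the reason given next.

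The array labelled DMSO 3 did not carry the prostate signal and is shown apart. Spearman correlations over the probe sets of an array pair, a description only, were 0.812 to 0.819 between it and the other arrays and 0.965 to 0.980 among those 5. On it, 16 of the 18 probe sets lay below every other array. The share of all probe sets that did so was not counted. KLK3 (204583_x_at) read 24.5, ACP3 31.6 and FOLH1 (205860_x_at) 14.2, all below the median of 32.0 on that array. Shares of the DMSO 1 and 2 means are therefore upper limits: at most 1.25% for KLK3, at most 2.48% for ACP3 and at most 0.258% for FOLH1. AMACR read 55.3 on 209424_s_at and 72.8 on 209426_s_at, above that median, and 26.8 on 209425_at, below it. All 5 measured luminal markers (HOXB13, KRT8, KRT18, EPCAM and CDH1) were lower there by 8-fold or more than the average of the remaining 5. Of 10 measured leukocyte markers, 8 were higher by 8-fold or more. Over all 12165 genes, 266 were lower and 244 higher by that much. The exceptions among leukocyte markers were CD3D and CD2, which are T cell genes. The summed intensity of leukocyte markers was 20506 on DMSO 3, against 223 to 229 on the gedunin arrays and 231 and 220 on DMSO 1 and 2. That of 7 stromal markers was 1310 on DMSO 3, against 324 to 333 on the gedunin arrays and 294 and 311 on DMSO 1 and 2. By the luminal markers the other 5 arrays carried luminal prostate signal and the array labelled DMSO 3 did not.

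**Figure D1:**
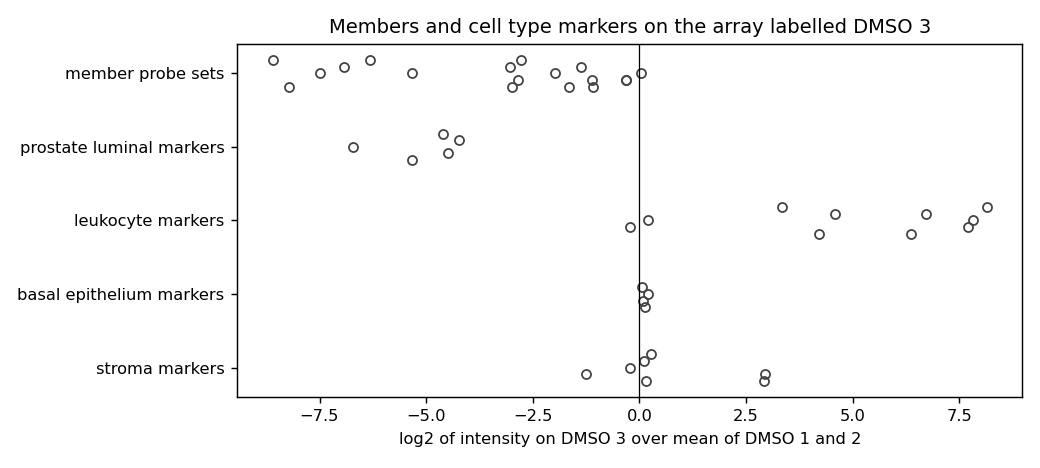
Log2 of the intensity on the array labelled DMSO 3 over the mean of DMSO 1 and 2 (x axis) for the 18 member probe sets and for markers of 4 cell types (rows); each circle is a probe set. The luminal markers and all members but AMACR 217113_at (103% of DMSO 1 and 2) lie to the left. FOLH1 (205860_x_at) is at no more than 0.258%, and the dim KLK2 209855_s_at and AMACR 217111_at are near the line at 80.1% and 80.3%. Of 10 leukocyte markers, 8 lie far to the right. Of 7 stromal markers, VIM (752%) and ACTA2 (771%) also lie to the right and COL1A1 (42.1%) to the left. The rest run from 85.6% to 120%.

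Every comparison below is a limma fit of log2 intensity over all probe sets on 5 arrays, with Benjamini-Hochberg adjusted p-values over the whole table and a threshold of 0.05. A log2 fold change is gedunin minus DMSO 1 and 2, with its moderated standard error (n = 3 and 2). Of the 18 member probe sets, 6 were called lower, or 33.3%, where 7.91% of all probe sets were. One was called higher, where 7.37% of all probe sets were. At or above the median intensity, 6 of 15 member probe sets were called lower, beside 1577 of all 11108 such probe sets. The 6 lower calls fall on 3 genes, 3 of them on AMACR, and probe sets of a gene share its transcripts. Counting each gene once by its brightest probe set, 2 of 7 were lower (AMACR and TMPRSS2) and 1 was higher (AZGP1), where 9.36% and 8.24% of all genes were. The median log2 fold change of the 18 probe sets was -0.25, against -0.012 for all probe sets. Gedunin and DMSO arrays did not overlap for 13 of the 18 (72.2%). The same held for 42.8% of all probe sets. At or above the median intensity it held for 11 of 15 member probe sets and for 58.4% of all such probe sets. When the array labelled DMSO 3 was kept, as 3 against 3, 0 of the 18 passed in limma and 0 had an unadjusted p under 0.05, while 1.40% of all probe sets passed. In a culture, fewer cells of a type and less RNA per cell cannot be told apart.

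**Figure D2:**
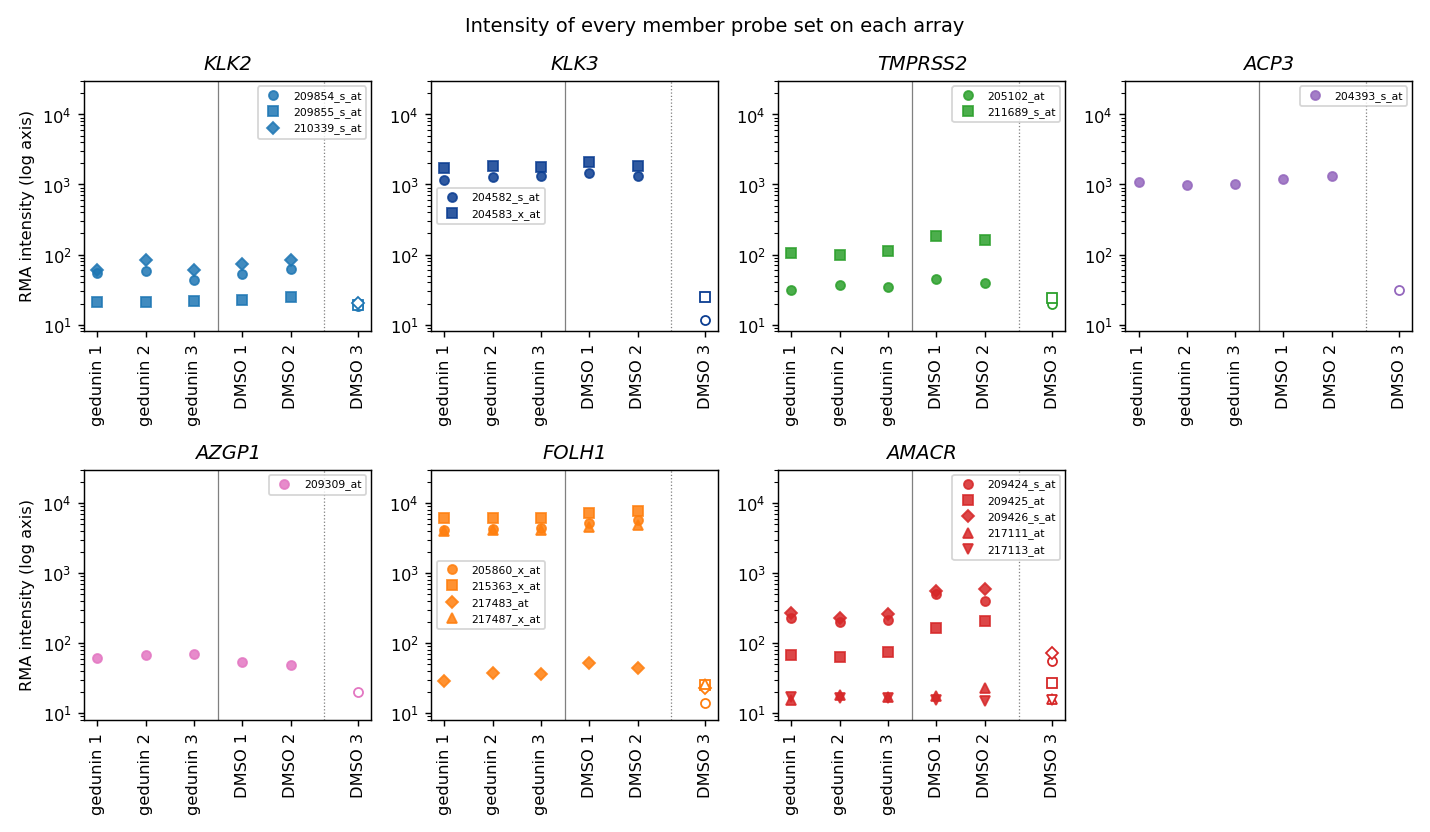
RMA intensity on a log axis (y) of each member probe set on each array (x), with a panel for each gene and a marker shape for each probe set; filled symbols are the 5 arrays of the fit and open symbols the array labelled DMSO 3. The 3 brighter AMACR probe sets sit lower on the gedunin arrays than on DMSO 1 and 2, KLK3 overlaps or nearly so, and the bright members drop to about 11 to 73 on DMSO 3.

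The promoters of KLK3, KLK2 and AMACR are shown because the neighbouring kallikreins, both outside the threshold, share most of their promoter sequence, and AMACR had the largest fall. Each is the RefSeq window of 300 bases on GRCh38.p14, from 250 bases before the gene's start to 50 after it, and 7 of the 9 genes had an entry. KLK3 lies at chr19:50854665-50854964 on the plus strand, KLK2 at chr19:50873189-50873488 on the plus strand and AMACR at chr5:34008001-34008300 on the minus strand. All are printed 5′ to 3′ along the gene, and capitals mark AGAACA and GGAACA, core letters of androgen response elements, and TATAAA, the TATA box, on either strand.
KLK3: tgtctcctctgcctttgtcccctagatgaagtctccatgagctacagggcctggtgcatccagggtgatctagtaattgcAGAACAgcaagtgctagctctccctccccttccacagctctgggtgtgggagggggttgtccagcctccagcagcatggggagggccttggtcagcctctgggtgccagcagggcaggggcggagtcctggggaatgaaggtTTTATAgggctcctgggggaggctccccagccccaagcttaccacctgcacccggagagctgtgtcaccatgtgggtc
KLK2: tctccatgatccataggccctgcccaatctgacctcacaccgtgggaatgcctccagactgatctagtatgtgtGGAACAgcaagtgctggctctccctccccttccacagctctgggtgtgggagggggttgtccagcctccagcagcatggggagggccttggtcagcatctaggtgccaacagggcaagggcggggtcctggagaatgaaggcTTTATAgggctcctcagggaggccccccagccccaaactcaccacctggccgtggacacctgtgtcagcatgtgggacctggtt
AMACR: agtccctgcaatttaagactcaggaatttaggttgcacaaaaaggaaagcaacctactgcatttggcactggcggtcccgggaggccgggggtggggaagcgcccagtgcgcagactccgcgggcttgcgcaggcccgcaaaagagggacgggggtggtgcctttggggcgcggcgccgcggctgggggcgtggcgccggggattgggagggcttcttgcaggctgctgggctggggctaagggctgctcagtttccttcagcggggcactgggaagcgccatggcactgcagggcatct

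The KLK3 and KLK2 windows were identical at 246 of 290 aligned bases (84.8%), with an unbroken shared run of 80 bases. KLK3 against AMACR gave 57.3% in the same alignment, with a longest shared run of 8. Both percentages leave out gaps, and no background of other promoter pairs was made to scale them. KLK3 held AGAACA with its first base 170 bases before the start, and KLK2 held GGAACA 176 bases before it. TATAAA was read on the opposite strand of both, in windows starting 28 and 34 bases before the start. None of the 3 motifs was found in the windows of AMACR, which fell, of AZGP1, which rose, of ACP3, which did not pass, or of SLC45A3. KLK4 held GGAACA 71 bases before its start. TMPRSS2 and FOLH1, which fell on some of their probe sets, had no entry and could not be searched. Of 35116 such windows in the table, 14.8% hold AGAACA, 14% GGAACA and 11.5% TATAAA. These matches describe letters only.

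The 2 probe sets of KLK3 gave similar values. On 204583_x_at KLK3 read 1702, 1817 and 1796 on the gedunin arrays, against 2093 and 1810 on DMSO 1 and 2. DMSO 2 lay below 1 of the gedunin arrays, so the groups overlapped. The log2 fold change was -0.14 ± 0.10 (adjusted p = 0.425), with a 95% interval of -0.35 to 0.079. On 204582_s_at the gedunin arrays read 1168, 1273 and 1317, against 1476 and 1305 on DMSO, and the log2 fold change was -0.15 ± 0.10 (adjusted p = 0.385, interval -0.37 to 0.070). In linear terms these intervals run from 0.784 to 1.06 of the DMSO level on 204583_x_at and from 0.774 to 1.05 on 204582_s_at.

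KLK2, whose product can activate the KLK3 precursor, read above the array medians on 2 of its 3 probe sets. Its probe set 210339_s_at read 60.3, 83.3 and 60.7 with gedunin, against 73.9 and 84.8 on DMSO 1 and 2. On 209854_s_at it read 54.4, 58.9 and 42.8 against 53.3 and 62.1. The groups overlapped on both. The third, 209855_s_at, read 20.98, 20.7 and 21.7 against 22.8 and 24.6, below the array medians of 31.1 to 31.8 on all 5 arrays, where RMA leaves little room for a fold. Log2 fold changes were -0.23 ± 0.14, -0.16 ± 0.14 and -0.17 ± 0.09 in the same order, with adjusted p-values of 0.351, 0.534 and 0.268. The widest interval, that of 210339_s_at, ran from -0.56 to 0.088, and without gedunin 2 this probe set passed (-0.39). KLK2 and KLK3 are close homologues, and how far their probe sets share signal was not tested.

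ACP3 had 1 probe set, and its value lay just outside the threshold. It read 1087, 970 and 1018 with gedunin, against 1211 and 1335 on DMSO 1 and 2. All 3 gedunin arrays lay below both DMSO arrays. The log2 fold change was -0.31 ± 0.09 (adjusted p = 0.0527), with an interval of -0.52 to -0.10. It passed the threshold in 5 of the alternative fits, among them those without dim probe sets and with a second quantile normalization.

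AZGP1 was the one member that rose. It read 61.9, 67.6 and 69.7 with gedunin, against 53.8 and 49.1 on DMSO 1 and 2, with all gedunin arrays above both DMSO arrays. The rise was 0.37 ± 0.09 on the log2 scale (adjusted p = 0.0269), or 1.29-fold with an interval of 1.11 to 1.49. The call ended under 8 alternatives. Of these, the replicate block and the fit without gedunin 3 share the same estimate. With DMSO 3 left out, gedunin 3 has no DMSO array in its block. They include the replicate block (0.33, adjusted p = 0.0917; 0.0550 to 0.518 over these 8, leaving aside the stricter threshold) and leaving out gedunin 2, gedunin 3, DMSO 1 or DMSO 2, with values of 0.30 to 0.43.

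TMPRSS2 fell on the brighter of its probe sets. On 211689_s_at it read 104, 98.7 and 114 with gedunin, against 185 and 159 on DMSO 1 and 2. The groups stood well apart, and the fall was 0.70 ± 0.10 on the log2 scale (adjusted p = 0.00136), to 0.614 of the DMSO level with an interval of 0.522 to 0.721. The other probe set, 205102_at, was close to the array medians. It read 31.2, 37.2 and 34.2 with gedunin, against 44.99 and 38.8 on DMSO, with no overlap and a log2 fold change of -0.29 ± 0.11 (adjusted p = 0.109, interval -0.53 to -0.050). With the mean of both probe sets in place of either, TMPRSS2 had -0.50 ± 0.09.

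FOLH1 was lower with gedunin on all 4 of its probe sets, without overlap between the groups, and 2 of them passed. Its 205860_x_at read 4095, 4292 and 4465 with gedunin, against 5207 and 5789 on DMSO 1 and 2, a fall of 0.36 ± 0.09 on the log2 scale (adjusted p = 0.0272). That call was lost without gedunin 1, gedunin 2, DMSO 1 or DMSO 2 (values -0.44 to -0.28). On 217483_at, near the array medians, FOLH1 read 29.4, 37.3 and 36.1 against 53.0 and 44.8, a fall of 0.52 ± 0.12 (adjusted p = 0.0200), lost without DMSO 1 (-0.39). On the brightest, 215363_x_at, FOLH1 read 6126, 6206 and 6151 with gedunin, against 7183 and 7626 on DMSO, with -0.26 ± 0.09 (adjusted p = 0.0673). The remaining probe set, 217487_x_at, read 4027, 4106 and 4109 against 4573 and 4884, with -0.21 ± 0.09 (adjusted p = 0.142). The intervals of all 4 lay below 0, from -0.79 at the lowest to -0.020 at the highest. The mean of the 4 fell by 0.34 ± 0.07 (adjusted p = 0.0136). The brightest probe set passed in 5 alternative fits, among them the one without dim probe sets (adjusted p = 0.0414).

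AMACR fell most. On 209425_at it read 69.0, 63.2 and 75.8 with gedunin, against 163 and 205 on DMSO 1 and 2. The fall was 1.40 ± 0.12 on the log2 scale (adjusted p = 4.37e-05). That is 0.378 of the DMSO level, with an interval of 0.313 to 0.457. On 209426_s_at AMACR read 273, 233 and 258 with gedunin, against 560 and 588 on DMSO, a fall of 1.17 ± 0.10 (adjusted p = 3.24e-05). On 209424_s_at the values were 232, 203 and 214 against 498 and 405, a fall of 1.06 ± 0.11 (adjusted p = 0.000159). In each case the highest gedunin array was far below the lower DMSO array. Ordered by log2 fold change, only 16, 53 and 82 of the 22215 probe sets lay below these 3. The calls held in each of the other fits on 4 or 5 arrays, with values of -1.57 to -1.23 for 209425_at when an array was left out.

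The other 2 AMACR probe sets were below the median on every array of the fit. On 217111_at AMACR read 15.5, 18.5 and 17.0 with gedunin, against 17.4 and 22.7 on DMSO 1 and 2 (-0.23 ± 0.13, adjusted p = 0.293). On 217113_at it read 16.9, 16.6 and 16.4 against 15.7 and 15.0 (0.12 ± 0.08, adjusted p = 0.447). Signals of this size also stood on DMSO 3 (16.1 and 15.7), where the other AMACR probe sets read 26.8 to 72.8. With these 2 included, the mean of all 5 AMACR probe sets fell by 0.75 ± 0.07 in limma (adjusted p = 0.000168).

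**Figure D3:**
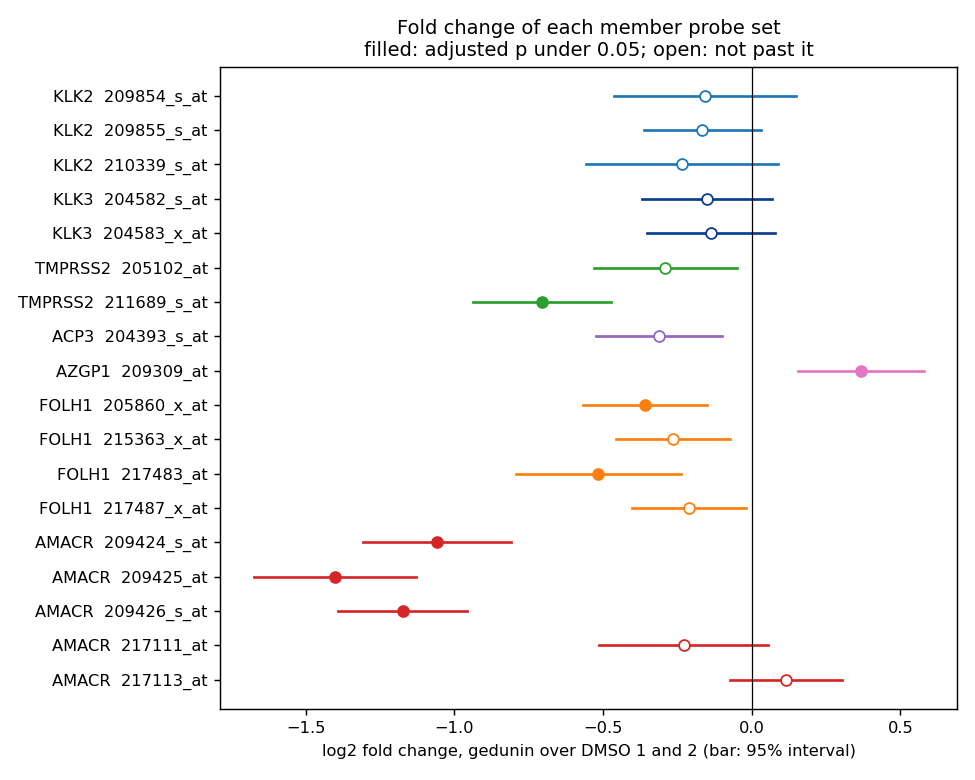
Log2 fold change of gedunin over DMSO 1 and 2 (x axis) for each of the 18 member probe sets (rows), with 95% intervals as bars; filled points passed an adjusted p of 0.05. The 3 AMACR points between -1.40 and -1.06 stand to the left of the other members, whose values run from -0.70 to 0.37.

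Alternative fits separated the members. AMACR and the brighter TMPRSS2 probe set passed in each of the fits on 4 or 5 arrays, while FOLH1 (205860_x_at) and AZGP1 lay near the threshold. Centring on GAPDH and ACTB moved the median of all probe sets to -0.18, and with it 12 of the 18 probe sets were called lower and none higher, beside 5226 lower and 1041 higher calls over all probe sets. ACTB itself rose by 0.32 ± 0.09 (adjusted p = 0.0347) and GAPDH had 0.020 ± 0.09 (adjusted p = 0.918). Keeping the array labelled DMSO 3 turned 10 of the 18 signs, with 16 of the 18 lower on it than on any other array: KLK3 (204583_x_at) then had 1.97 ± 1.78 and FOLH1 (205860_x_at) 2.51 ± 2.42.

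**Figure D4:**
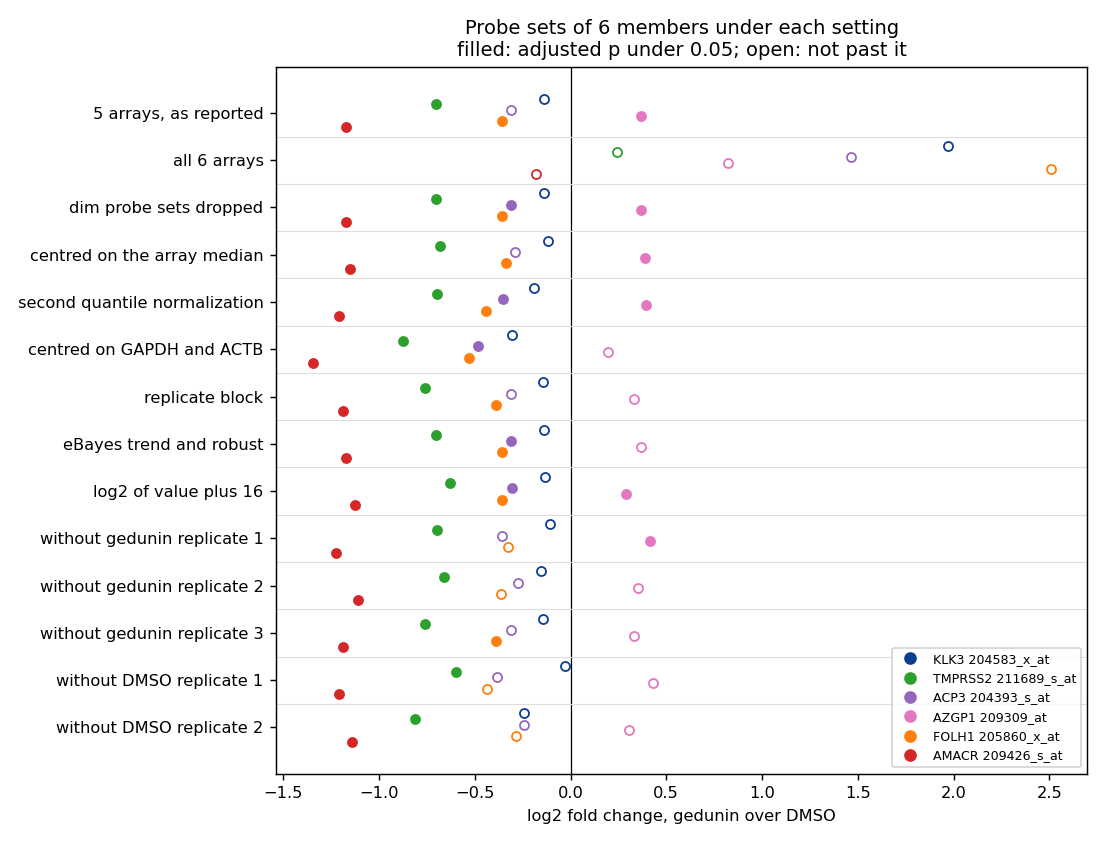
Log2 fold change (x axis) of a probe set each of KLK3, TMPRSS2, ACP3, AZGP1, FOLH1 and AMACR under each alternative fit (rows); filled points passed an adjusted p of 0.05. AMACR and TMPRSS2 stay filled in all rows but the one with all 6 arrays, where KLK3, ACP3 and FOLH1 move to positive values of 1.46 to 2.51 and none is called.

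Related genes were read from 7 lists, each gene by its brightest probe set. Over all genes, 9.36% were called lower and 8.24% higher, and 3697 of 12165 had an unadjusted p under 0.05 in limma. Each count below is to be set beside these shares. Among other kallikreins, 0 of 11 measured genes passed in limma and 0 had an unadjusted p under 0.05. Their median log2 fold change was 0.039, against -0.017 for all genes. The signal of 10 of these 11 was below the array median on all 5 arrays. Of 12 measured membrane serine proteases, the family of TMPRSS2, ST14 (matriptase) was the 1 that fell (-0.39 ± 0.09, adjusted p = 0.0194). It read 146, 153 and 163 with gedunin, against 193 and 211 on DMSO 1 and 2. Hepsin (HPN), another membrane serine protease, read 530, 577 and 520 against 601 and 622 and did not pass (-0.17, adjusted p = 0.256). Of 11 measured protease inhibitors, SERPINE2, an inhibitor of thrombin and urokinase, was the 1 that rose (0.62 ± 0.09, adjusted p = 0.00125).

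Genes listed as other seminal and prostate secretions, a list that also holds the enzyme gene NANS, were called in both directions. Of 15 measured genes, 3 rose and 2 fell, where 8.24% of all genes rose and 9.36% fell, with a median of 0.060. GDF15, a stress-induced secreted cytokine, rose by 2.82 ± 0.09 (adjusted p = 5.13e-08), reading 6242, 6126 and 5569 with gedunin against 856 and 833 on DMSO 1 and 2. CLU, the secreted chaperone clusterin, rose by 2.02 ± 0.14 (adjusted p = 9.63e-06). AGR2, a disulfide isomerase of secretory cells, fell by 0.90 ± 0.12 (adjusted p = 0.000815), and the sialic acid synthase gene NANS rose by 0.37 ± 0.10 (adjusted p = 0.0325). CST3, the protease inhibitor cystatin C, was the other that fell (-0.34, adjusted p = 0.0312).

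Among 18 other prostate surface proteins, 0 rose and 5 fell, against 8.24% and 9.36% of all genes, with a median of -0.16. The signal of 7 of these 18 was below the array median on all 5 arrays. The tight-junction genes CLDN3 (-0.69 ± 0.09, adjusted p = 0.000562), CLDN8 (-0.53 ± 0.13, adjusted p = 0.0255) and CLDN4 (-0.51 ± 0.09, adjusted p = 0.00478) were among those that fell. CLDN8 was dim, below the array median on 4 of the 5 arrays. It read 18.0, 20.5 and 23.5 with gedunin, against 26.4 and 33.2 on DMSO 1 and 2. ERBB3, a receptor of the EGF receptor family, also fell (-0.40 ± 0.09, adjusted p = 0.0104). STEAP1, a metalloreductase family member, did not pass (-0.20, adjusted p = 0.160). Its gedunin arrays read 2756, 2901 and 2943, below the 3243 and 3360 of DMSO 1 and 2.

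Around FOLH1, 2 of 11 measured genes of folate and glutamate peptide handling rose and 2 fell (median -0.18), again beside 8.24% and 9.36% of all genes. FOLR1, a folate receptor, fell by 0.60 ± 0.16 (adjusted p = 0.0266) and the folate enzyme MTHFD1 by 0.44 ± 0.09 (adjusted p = 0.00836). SHMT2, the mitochondrial serine hydroxymethyltransferase, rose by 0.51 ± 0.09 (adjusted p = 0.00339), and FPGS, which adds the glutamates that FOLH1 removes, by 0.53 ± 0.15 (adjusted p = 0.0405). Around AMACR, 1 of 14 measured genes of peroxisomal branched-chain oxidation rose and 2 fell (median -0.12), beside the same shares of all genes. ABCD3, a peroxisomal membrane transporter, fell by 0.80 ± 0.10 (adjusted p = 0.000348), reading 128, 127 and 146 with gedunin against 233 and 233 on DMSO 1 and 2. ACAA1, a peroxisomal thiolase, fell by 0.46 ± 0.09 (adjusted p = 0.00811), and the oxidase gene ACOX3 rose by 0.53 ± 0.09 (adjusted p = 0.00339). HSD17B4, which acts after the AMACR step, read 1072, 1254 and 1355 against 1406 and 1418 and did not pass (-0.21, adjusted p = 0.264). Among these named genes with further probe sets, 2 of 2 others of SHMT2, 1 of 1 of CLDN3 and 1 of 2 of CLU were called in the same direction, and none of those of GDF15, FOLR1, ST14, ERBB3, ACOX3 and ACAA1 was. With all 6 arrays 0 genes of these lists passed in limma.

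**Figure D5:**
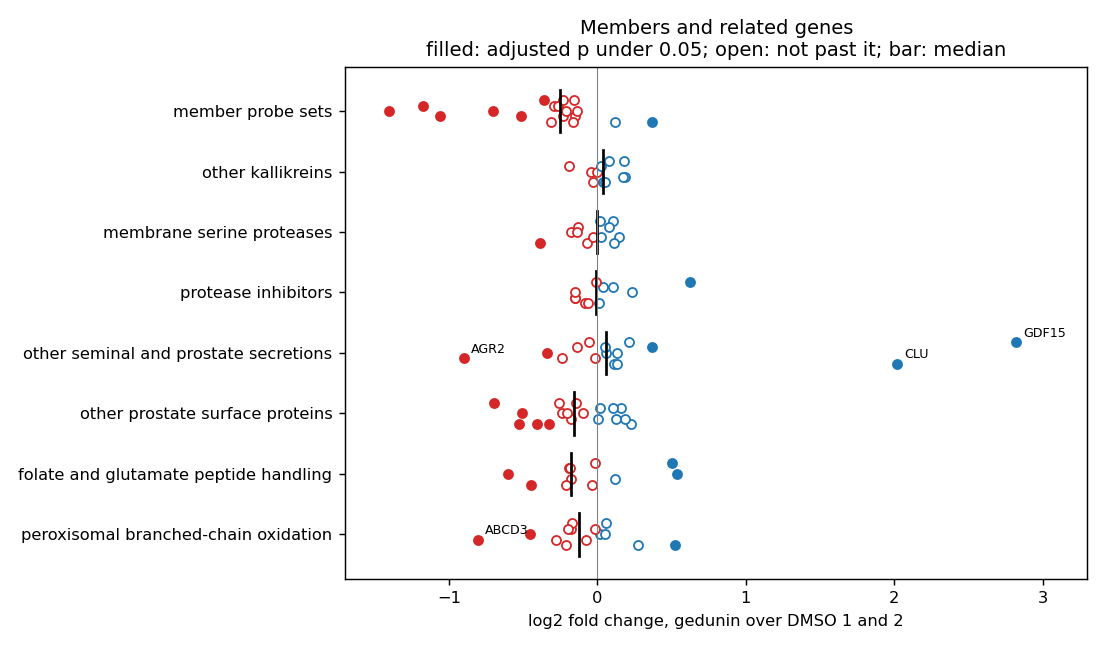
Log2 fold change of gedunin over DMSO 1 and 2 (x axis) for the 18 member probe sets and for genes of 7 related lists (rows); filled points passed an adjusted p of 0.05, red is lower, blue higher, and black bars are medians. GDF15 at 2.82 and CLU at 2.02 stand far to the right, and the member median is -0.25.

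The luminal markers themselves were not level between gedunin and DMSO 1 and 2. KRT18 (0.47, adjusted p = 0.00590) and KRT8 (0.34, adjusted p = 0.0450) rose, HOXB13 fell (-0.39, adjusted p = 0.0319), and EPCAM and CDH1 did not pass. Of 7 stromal markers, ACTA2 (0.76) and COL1A1 (0.75) rose and VIM fell (-0.52). The summed intensity of these 7 was 324 to 333 for gedunin, and for DMSO 1 and 2 it was 294 and 311. Basal epithelial markers, including KRT5 and KRT14, were below the median on all 5 arrays. The part of these differences in the results above was not tested.

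By distance over the 6 log2 values, each taken relative to the mean of DMSO 1 and 2, the genes most like KLK3 (204583_x_at) were ANK3, SPINT2, CKB, LIMCH1 and ADAMTS1, at distances of 0.28 to 0.36. Most like TMPRSS2 (211689_s_at) were CLDN3, CDK19, PAK4, PRKAA1 and SLITRK3, at 0.18 to 0.32. The low signal on the array labelled DMSO 3 carries much of this likeness, with log2 differences there of -6.31 for KLK3 and -2.84 for TMPRSS2.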

How the data were processed

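The deposited table holds 1 intensity per array and probe set on a linear scale, made by the authors with RMA per the submitters' processing notes; the version, and which arrays were processed together, are not given in the sources used here. The lowest value was 11.0 and no detection calls were used. Log2 of these values was taken. Probe sets were named from the platform annotation GEO holds: 19724 had 1 symbol, 568 several and 1923 none, and the last 2 kinds were tested but not named.

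Gedunin 1 to 3 were compared with DMSO 1 and 2 by limma 3.58.1 (R 4.3.3; lmFit and eBayes over 22215 probe sets), with Benjamini-Hochberg adjustment and no filter. The code was tested on simulated data. Named genes were all member probe sets, up to 4 called genes of each of 7 lists by size of change, and the 5 genes nearest to KLK3 and to TMPRSS2; HPN, STEAP1, HSD17B4, CST3 and the markers were named after their values were seen. Members and lists were chosen with earlier results of these data known, and the promoter motifs after the promoters were read. Intensities of different probe sets served to rank those of a gene by brightness, to mark dim ones and in sums over markers. They are not read as relative amounts of transcripts. The number of arrays limits the precision.

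Alternatives were all 6 arrays, a filter on dim probe sets, 3 other scalings, a block for replicate number, eBayes with both trend and robust set, log2 of the value plus 16, leaving out each array, a threshold of 0.01 and averaging each gene over its probe sets. Same-numbered arrays share only a number in the labels.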

Additional observations from a re-analysis of the deposited data

Results flagged for a closer look

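One probe set, 217014_s_at, is annotated to both AZGP1 and its neighbouring pseudogene AZGP1P1 and so was left out of the member counts. It is given here because the results above did not cover it. It read 36.3, 31.8 and 34.7 with gedunin, against 21.97 and 23.0 on DMSO 1 and 2, with 20.98 on the array labelled DMSO 3. The readings on DMSO 1 and 2 lay below the medians of those arrays, 31.8 and 31.7. The log2 fold change was 0.60 ± 0.09 in limma (adjusted p = 0.00175), and 0.64 ± 0.09 with all 6 arrays (adjusted p = 0.0452). All 3 gedunin arrays were above all 3 DMSO arrays. Which of the 2 genes gave this signal was not tested.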

How the results depend on the processing

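With all 6 arrays 312 probe sets were called in place of 3396, 0 of the 18 member probe sets in place of 7 and 0 of the list genes in place of 19. In that fit the sign turned for KLK2 (209854_s_at 0.39, 210339_s_at 0.43), KLK3 (204582_s_at 2.15, 204583_x_at 1.97), TMPRSS2 (205102_at 0.067, 211689_s_at 0.24), ACP3 (1.46) and FOLH1 (205860_x_at 2.51, 215363_x_at 2.47, 217487_x_at 2.29); the array labelled DMSO 3 is the only difference in construction. Centring on GAPDH and ACTB gave 6267 calls over all probe sets (1041 higher and 5226 lower, against 1638 and 1758) and 12 member calls, and turned the dim AMACR 217113_at to -0.054. A threshold of 0.01 left 1869 and 4. Leaving out an array gave 1805 to 3064 calls over all probe sets, lowest without DMSO 1 (1805) and DMSO 2 (1835), and 4 to 6 member calls, lowest without DMSO 1. With the replicate block, 2931 probe sets, 6 member probe sets and 17 list genes were called, the lost member call being AZGP1. In that fit gedunin 3 was alone in its block, so the member estimates equal those without gedunin 3. Across probe sets the difference of gedunin 1 and 2 correlated at 0.0033 with that of DMSO 1 and 2. Member calls numbered 7 with centring on the median (3333 over all probe sets) and 10 with log2 of the value plus 16 (3594). Without dim probe sets they numbered 9, of the 15 member probe sets kept (3412 over all kept). With a second quantile normalization (3392) and with eBayes trend and robust (3756) they numbered 9 each. Probe sets near 20 are dim, and folds there can be understated, which was not tested.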
